A study of Homo sapiens with 16 samples.

Results

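The YAP/TEAD factors and their core target genes were followed through 4 treatments of MDA-MB-231 cells, a triple-negative breast cancer line of mesenchymal character. The genes were taken by symbol from the deposited count table: YAP1, WWTR1, TEAD1, TEAD4, CTGF, CYR61, ANKRD1, AMOTL2 and LATS2, which are 9 of its 37864 genes. All 9 had enough counts to be tested, as did 17991 genes in all. The groups were the solvent DMSO, afatinib (an irreversible inhibitor of the EGFR family kinases), paclitaxel (which stabilises microtubules), and afatinib with paclitaxel, called the combination here, each with 4 libraries of total RNA sequenced in bulk. The series title asks for the joint effect of both drugs on this line. All libraries come from 1 established cell line in DMEM with serum, and no dose or length of exposure was given in the sources used here.

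YAP1 and TAZ (the product of WWTR1) are transcriptional coactivators. The Hippo kinases, ending in LATS1 and LATS2, phosphorylate them and hold them in the cytoplasm, and when the kinases are inactive they enter the nucleus and bind TEAD factors on DNA. CTGF and CYR61 (CCN2 and CCN1 in newer nomenclature) and ANKRD1 are widely read as the output of this complex, while AMOTL2 and LATS2 are targets whose proteins restrain YAP1 in turn. YAP1 activity is set largely by phosphorylation and location, which transcript counts do not measure. In triple-negative breast cancer lines the pathway is known for matrix attachment and cytoskeletal tension as its inputs.

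Totals per library lay between 28.4M and 48.1M counts, and the 9 genes together took 0.188 to 0.537% of them. By the labels, the RNA of replicates 1 and 2 was at 345.6 to 1290.9 ng/µl and that of replicates 3 and 4 at 118 to 330 ng/µl, and membership of these 2 sets of replicates entered each fit as a term. The sets adjoin in concentration, and the labels do not say whether they were separate experiments or extractions. The line's markers VIM, CD44, FN1, EGFR and AXL stood at 350 CPM or above in every library (CPM are counts scaled to a common library size), while ESR1 and CDH1 were below 1 CPM and EPCAM, GATA3 and PGR at 3.8 to 14.3 CPM. All 3 blood markers in the table were below 1 CPM. The 4 endothelial markers summed to 3.64 to 9.25 CPM in DMSO, to 2.7 to 5.13 under afatinib, 3.78 to 7.22 under paclitaxel and 2.76 to 4.83 under the combination, and the 4 fibroblast markers to 15 to 25.5, 12.9 to 23.3, 14.2 to 25.4 and 12.3 to 27.6 CPM, with LUM and PDGFRA at 5 counts or fewer. Of the endothelial markers, CDH5 ranged from 0.138 to 2.64 CPM over all libraries, with means of 1.5 CPM in DMSO and 0.264 CPM in the combination. The part of these low signals in the results was not tested. Nothing in the labels ties replicates to separate cultures, so all p-values measure only the spread between these libraries, which may be technical. In bulk RNA a lower level may mean fewer cells with the transcript or less of it per cell, which cannot be told apart.

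Promoters were examined for the letters that TEAD factors are known to bind, since CTGF, CYR61, ANKRD1 and AMOTL2 all fell in the combination. RefSeq (GRCh38.p14) gave a window of 250 bases before the start for 6 of the 9 genes, with 8 start sites in all. CYR61, TEAD1 and TEAD4 had no window, so their promoters were not examined. GGAATG, searched on both strands, stood in 4 of these 8 windows, against 11.9% of 35116 RefSeq windows of the same length. The CTGF window held it 3 times, as did 0.0826% of all windows (29 windows) with 3 or more, and it is shown whole for that reason, on the minus strand at chr6:131951373-131951622, with the motifs in capitals.
CTGF: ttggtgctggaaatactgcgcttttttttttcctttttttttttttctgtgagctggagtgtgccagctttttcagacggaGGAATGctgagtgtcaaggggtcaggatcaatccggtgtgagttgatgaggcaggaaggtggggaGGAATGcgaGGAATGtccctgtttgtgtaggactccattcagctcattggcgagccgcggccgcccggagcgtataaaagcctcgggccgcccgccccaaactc
The 3 matches begin 169, 104 and 95 bases before the start and do not overlap. ANKRD1 held 2 matches, 220 and 128 bases before its start, where 0.94% of all windows held 2 or more. YAP1 held 1 match 162 bases before its start, and AMOTL2 held 1 on the reverse strand, 69 bases before the downstream of its start sites. These sites are shown as 30 bases of the gene's strand with the motif in capitals, at chr10:90921290-90921319 and chr10:90921198-90921227 (ANKRD1, minus strand), chr11:102110273-102110302 (YAP1, plus strand) and chr3:134374499-134374528 (AMOTL2, minus strand, where the capitals read as the reverse complement).
ANKRD1 far: atcaccaccaaaGGAATGgccctctcacat
ANKRD1 near: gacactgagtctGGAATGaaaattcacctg
YAP1: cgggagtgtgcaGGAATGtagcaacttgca
AMOTL2: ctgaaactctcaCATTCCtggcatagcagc
The near ANKRD1 site and the AMOTL2 site lie in exons of these genes in GENCODE v29, whose start sites differ from those of RefSeq. The windows of WWTR1 and LATS2 and the upstream one of AMOTL2 held no match. The AP-1 motif TGACTCA, searched on both strands, stood in none of the 8 windows and in 4.2% of all. A match of letters is a description of the window and no evidence of binding.

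In DMSO the 3 best known targets stood far above the factors that drive them. RPKM are CPM divided by the gene length given with the counts, in kilobases. For TEAD4 and WWTR1 this length equals the union of all GENCODE v29 exons (2272 and 8413 bases). It is not the length of the transcripts present, so orders between genes in RPKM depend on it. On this scale CYR61 reached 1080 ± 313 (SD, n = 4), the 18th highest level of the 17991 tested genes. CTGF followed at 232 ± 73.4 (rank 108) and ANKRD1 at 210 ± 37.5 (rank 128). The libraries of CTGF (143 to 322 RPKM) and ANKRD1 (182 to 263 RPKM) overlapped, so their order is not beyond the spread. AMOTL2 stood at 50.5 ± 5.95 RPKM. TEAD4 (33 ± 4.86), YAP1 (30.4 ± 3.14) and TEAD1 (29.4 ± 3.34) had overlapping RPKM levels. LATS2 (16.5 ± 1.71) and WWTR1 (8.88 ± 0.568) were the lowest, each apart from its neighbours in all libraries. Of the other TEAD genes, TEAD3 stood at 12.6 ± 1.29 and TEAD2 at 5.57 ± 1.02 RPKM, so TEAD1 and TEAD4 had the highest RPKM of the family. The mean of ANKRD1 stood above that of CTGF in each treated group, at 139 ± 27.4 against 99.8 ± 33.1 RPKM with afatinib, 183 ± 15.6 against 139 ± 53 with paclitaxel and 87.6 ± 12.2 against 51.8 ± 26.8 in the combination, with overlapping libraries each time.

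**Figure D1:**
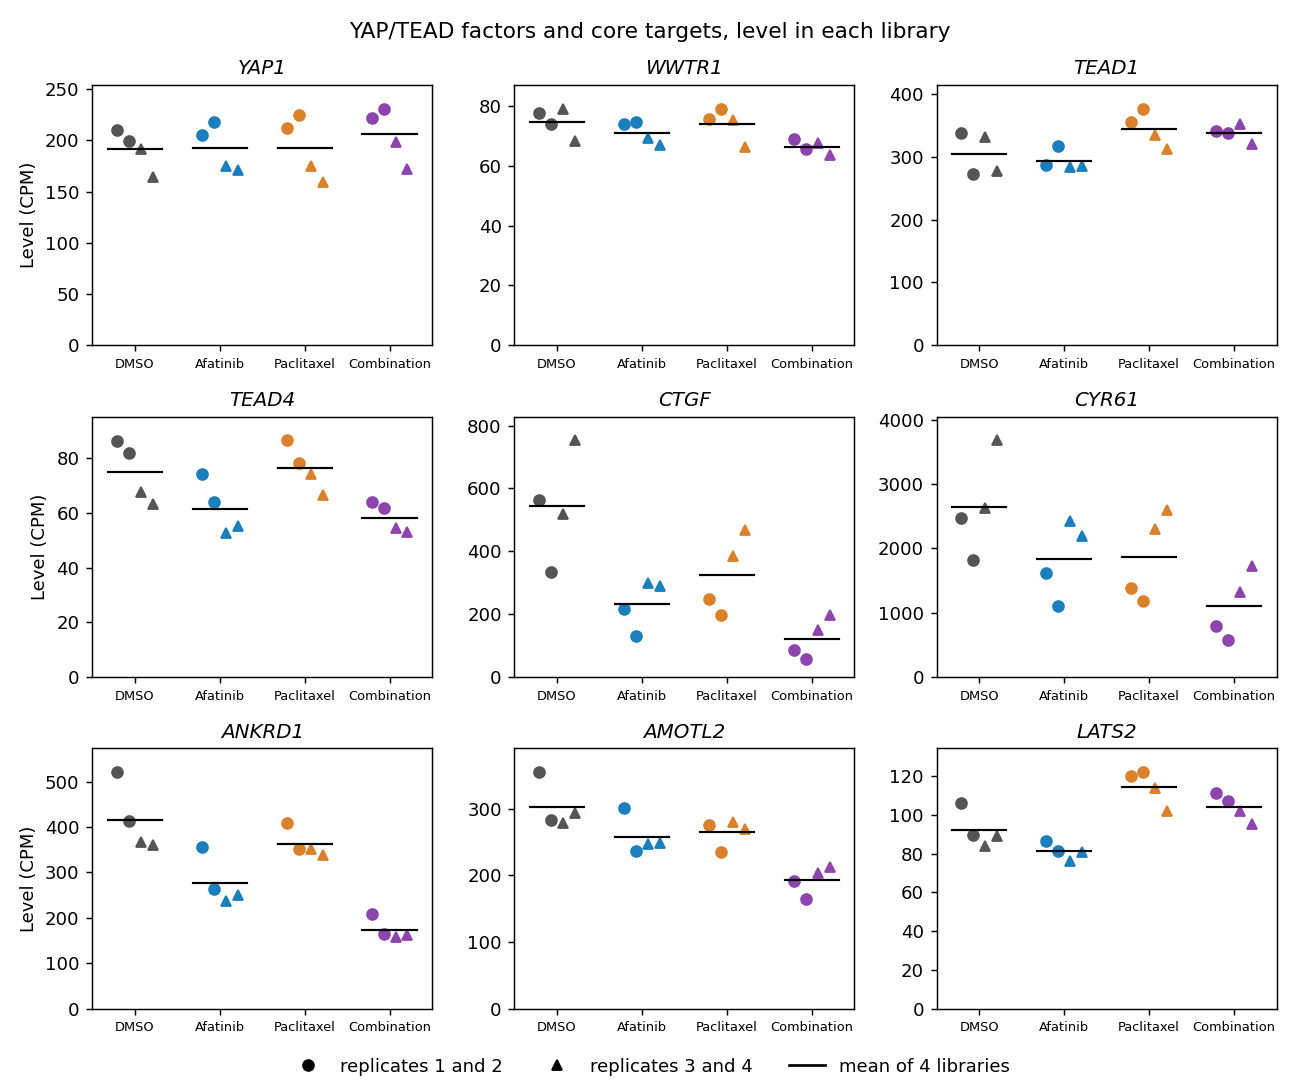
Level in CPM (vertical axes, from 0, scaled per gene) of the 9 genes in the 4 treatment groups (horizontal axes). Circles are replicates 1 and 2, triangles replicates 3 and 4 and lines the means of 4 libraries. CTGF, CYR61, ANKRD1 and AMOTL2 are lowest in the combination (means of 121, 1100, 173 and 193 CPM), while YAP1 keeps means of 191 to 206 CPM in all groups.

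The coactivators changed little. YAP1 (ENSG00000137693, chromosome 11, 102110461 to 102233423, GRCh38) stood at 33.4, 31.7, 30.5 and 26 RPKM in DMSO replicates 1 to 4, at 32.6, 34.7, 27.8 and 27.2 under afatinib, 33.7, 35.8, 27.7 and 25.3 under paclitaxel and 35.3, 36.7, 31.4 and 27.3 in the combination. The libraries of all groups overlapped, and in each group replicates 1 and 2 lay above 3 and 4. The log2 difference from DMSO (± SE, edgeR quasi-likelihood fit) was 0 ± 0.06 with afatinib (95% interval −0.12 to 0.13), 0 ± 0.06 with paclitaxel (−0.12 to 0.13) and 0.10 ± 0.06 in the combination (−0.03 to 0.22). None passed after Benjamini-Hochberg adjustment (adjusted p = 0.981, 0.986 and 0.216). The combination passed without DMSO replicate 3 (0.17, adjusted p = 0.0285), and with the labelled concentration in place of the set term (0.24, adjusted p = 0.0352).

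WWTR1, the gene of TAZ (ENSG00000018408, chromosome 3, 149517235 to 149736714), stood at 77.6, 74.1, 78.9 and 68.2 CPM in DMSO and at 68.9, 65.6, 67.5 and 63.5 in the combination. The single drugs held 66.8 to 74.5 CPM (afatinib) and 66.3 to 79.1 CPM (paclitaxel). Combination libraries were below their DMSO counterparts within each set, but DMSO replicate 4 overlapped with combination replicate 1. WWTR1 fell by 0.17 ± 0.06 on the log2 scale in the combination (adjusted p = 0.0187, −0.17 in each set), and differed by −0.07 ± 0.06 and −0.01 ± 0.06 with the single drugs (adjusted p = 0.403 and 0.91). The call was lost without combination replicate 2 (adjusted p = 0.0925), DMSO replicate 1 (0.0584) or DMSO replicate 3 (0.122), with the labelled concentration as covariate (0.124), without the set term (0.161), within either set alone (0.0655 and 0.252) and with limma on the authors' corrected values (0.226). In the combination against paclitaxel WWTR1 was also lower (−0.16 ± 0.06, adjusted p = 0.0434), a call lost without afatinib replicate 1, 2, 3 or 4, combination replicate 1, 2 or 4, DMSO replicate 1 or 2, or paclitaxel replicate 1, 2 or 3 (adjusted p = 0.0524 to 0.161). The antisense gene WWTR1-AS1 overlaps WWTR1 and had 1 to 12 counts per library.

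Of the TEAD factors, TEAD4 fell with afatinib and in the combination, while no change of TEAD1 against DMSO passed. TEAD4 (ENSG00000197905, chromosome 12, 2959330 to 3040673) stood at 86.5, 81.9, 67.8 and 63.4 CPM in DMSO, at 74.3, 64.1, 52.5 and 55.4 under afatinib, 86.6, 78.2, 74.1 and 66.5 under paclitaxel and 64, 61.8, 54.5 and 53 in the combination. Afatinib and combination libraries lay below DMSO within each set. TEAD4 fell with afatinib (−0.28 ± 0.06, adjusted p = 0.00144, −0.27 and −0.29 within replicates 1 and 2 and within 3 and 4) and in the combination (−0.36 ± 0.06, adjusted p = 3.67e-05, −0.42 and −0.29). With paclitaxel it differed by 0.03 ± 0.06 (adjusted p = 0.754, 95% interval −0.09 to 0.16), and the direct comparison put afatinib below paclitaxel by −0.32 ± 0.06 (adjusted p = 0.000195). Both calls against DMSO were lost without the set term (adjusted p = 0.36 and 0.0808), and the afatinib call also within replicates 3 and 4 alone (0.0884) and with limma on the authors' corrected values (0.0789).

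TEAD1 (ENSG00000187079, chromosome 11, 12674591 to 12944483) stood at 338, 273, 332 and 278 CPM in DMSO, at 287, 318, 284 and 286 under afatinib, 355, 377, 335 and 312 under paclitaxel and 341, 338, 352 and 321 in the combination. The 4 combination libraries were all above the 4 afatinib libraries, by 0.20 ± 0.07 (log2, adjusted p = 0.0265). That call was lost without afatinib replicate 1 (adjusted p = 0.0721), 3 (0.0664) or 4 (0.0598) or combination replicate 3 (0.105). It was also lost without the set term, within either set alone and with the labelled concentration as covariate. Limma on the authors' corrected values did not give it either (adjusted p up to 0.276 over these settings). Against DMSO no TEAD1 difference passed: −0.06 ± 0.07 with afatinib (adjusted p = 0.605), 0.17 ± 0.07 with paclitaxel (0.0749) and 0.15 ± 0.07 in the combination (0.0944). Paclitaxel passed with replicate numbers as a block (0.18, adjusted p = 0.0379), with a minimum count of 50 (0.19, 0.044) and without DMSO replicate 1 (0.22, adjusted p = 0.0375) or 3 (0.24, 0.0133), and the combination without DMSO replicate 1 (0.20, 0.0379) or 3 (0.22, 0.0136). Afatinib was lower than paclitaxel (−0.23 ± 0.07, adjusted p = 0.0098). This call was lost without the set term, within either set alone and with limma on the authors' corrected values (adjusted p up to 0.213).

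CTGF (ENSG00000118523, chromosome 6, 131948176 to 131951373), whose promoter is printed above and whose product is a secreted matricellular protein, showed the largest falls of the 9 genes. It stood at 564, 335, 518 and 753 CPM in DMSO, at 216, 131, 299 and 288 under afatinib, 249, 197, 384 and 468 under paclitaxel and 84.9, 56.5, 148 and 196 in the combination. All afatinib and all combination libraries lay below all DMSO libraries, while paclitaxel replicates 3 and 4 overlapped with DMSO replicate 2. CTGF fell with afatinib (log2 change −1.25 ± 0.25, adjusted p = 0.0046, −1.36 and −1.12 in the sets), with paclitaxel (−0.81 ± 0.25, adjusted p = 0.0387, −1.01 and −0.57) and in the combination (−2.27 ± 0.26, adjusted p = 2.57e-05, −2.67 and −1.88). The combination thus held 20.7% of the DMSO level in the fit. It was lower than afatinib alone (−1.02 ± 0.25, adjusted p = 0.01) and than paclitaxel alone (−1.47 ± 0.25, adjusted p = 0.00134).

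The CTGF call with paclitaxel lay near the threshold and was lost without afatinib replicate 3 or 4, combination replicate 1 or 3, DMSO replicate 1 or 4, or any of the 4 paclitaxel replicates (adjusted p = 0.0509 to 0.108), without the set term (0.415) or without a filter on low counts (0.0562). It was also lost within either set alone, in a fit of the compared groups alone and with limma on the authors' corrected values. The afatinib call was lost without the set term (−1.22, adjusted p = 0.138) and within replicates 1 and 2 alone (0.172). Without the set term the combination no longer passed against afatinib (−0.95, adjusted p = 0.186) or paclitaxel (−1.42, 0.0531). Nor did it pass against either drug within replicates 1 and 2 alone. The combination call against DMSO remained in each of the 27 alternatives, with log2 changes of −2.69 to −1.88. Afatinib and paclitaxel did not differ past the threshold (−0.45 ± 0.25, adjusted p = 0.182), except with replicate numbers as a block (−0.46, adjusted p = 0.0344) and within replicates 3 and 4 (−0.55, adjusted p = 0.0468). The antisense gene AL133346.1 overlaps CTGF and had 0 to 4 counts per library.

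CYR61 (ENSG00000142871, chromosome 1, 85580761 to 85583962), the related matricellular protein, stood at 2470, 1820, 2630 and 3680 CPM in DMSO, at 1610, 1100, 2430 and 2190 under afatinib, 1390, 1180, 2300 and 2600 under paclitaxel and 793, 575, 1320 and 1720 in the combination. Only the combination lay below DMSO in every library, and within each set all 3 treatments did. CYR61 fell by 1.35 ± 0.19 in the combination (log2, adjusted p = 8.36e-05), by −1.65 in replicates 1 and 2 and −1.05 in 3 and 4, a call that remained in all 27 alternatives. The falls with afatinib (−0.56 ± 0.18, adjusted p = 0.049, −0.65 and −0.45) and paclitaxel (−0.56 ± 0.18, adjusted p = 0.0469, −0.74 and −0.36) lay at the threshold, and the direct difference between both drugs was 0 ± 0.18 (95% interval −0.40 to 0.39). The combination was lower than each drug alone by −0.79 ± 0.18 (adjusted p = 0.00626 against afatinib and 0.00741 against paclitaxel).

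Both single-drug calls of CYR61 could be lost by leaving out 1 library. The afatinib call was lost without afatinib replicate 2, 3 or 4, DMSO replicate 1, 2 or 4, combination replicate 1 or 3, or any paclitaxel replicate (adjusted p = 0.0578 to 0.127). The paclitaxel call was lost without afatinib replicate 3 or 4, combination replicate 1 or 3, DMSO replicate 1, 2 or 4, or any paclitaxel replicate (0.059 to 0.124). Without the set term the single-drug values were −0.53 (adjusted p = 0.632) and −0.51 (0.626), and the combination no longer passed against afatinib (0.292) or paclitaxel (0.308). Nor did the combination pass against either drug within replicates 1 and 2 alone, or against paclitaxel with limma on the authors' corrected values. Both single-drug calls against DMSO were also lost without a filter on low counts, within either set alone and with limma on the authors' corrected values. With the labelled RNA concentration as covariate the CYR61 change with paclitaxel was −0.90 (adjusted p = 0.00303).

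**Figure D2:**
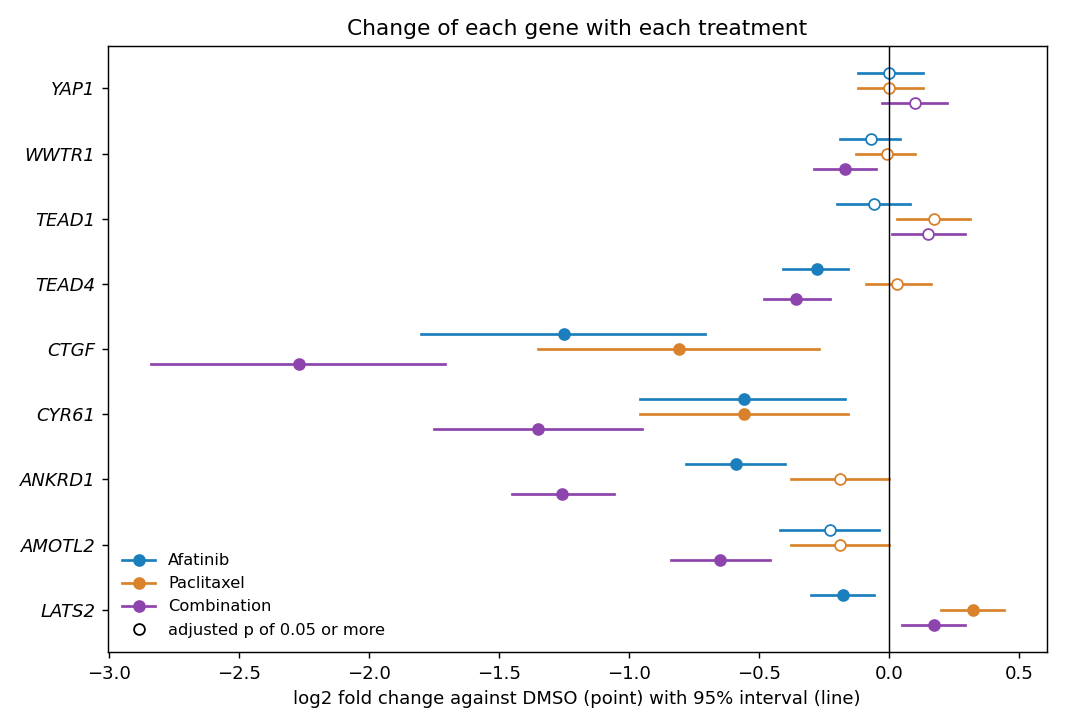
Change of each gene against DMSO (log2, horizontal axis, points with 95% intervals as lines) with afatinib, paclitaxel and the combination. Filled points passed at an adjusted p under 0.05. The combination moves CTGF to −2.27, CYR61 to −1.35 and ANKRD1 to −1.26, while the YAP1 intervals all span 0.

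ANKRD1 (ENSG00000148677, chromosome 10, 90912096 to 90921276), a nuclear and sarcomeric ankyrin repeat protein, fell with afatinib and in the combination. It stood at 521, 414, 367 and 360 CPM in DMSO, at 356, 263, 236 and 250 under afatinib, 408, 351, 352 and 338 under paclitaxel and 209, 165, 157 and 162 in the combination. Every afatinib library was below every DMSO library and every combination library below all others. Its log2 change was significant with afatinib (−0.59 ± 0.09, adjusted p = 0.000107, −0.59 in each set) and in the combination (−1.26 ± 0.09, adjusted p = 7.6e-10, −1.32 and −1.19). With paclitaxel it differed by −0.19 ± 0.09 (adjusted p = 0.157, −0.30 and −0.07 within the sets, lower in 4 of 4 replicate pairs), which passed with replicate numbers as a block (−0.18, adjusted p = 0.0119) and without a filter on low counts (−0.22, 0.00548). The combination was lower than afatinib by −0.67 ± 0.09 (adjusted p = 1.11e-05) and than paclitaxel by −1.07 ± 0.09 (adjusted p = 6.42e-08), and afatinib was lower than paclitaxel by −0.40 ± 0.09 (adjusted p = 0.00159). The afatinib call against DMSO was lost without the set term (adjusted p = 0.0543) and within replicates 1 and 2 alone (0.175). Afatinib against paclitaxel was lost in the same 2 settings (adjusted p up to 0.392). The combination no longer passed against afatinib within replicates 1 and 2 alone (0.0801).

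The targets with a restraining role differed from each other. AMOTL2 (ENSG00000114019, chromosome 3, 134355874 to 134375479), a junctional scaffold of the angiomotin family that binds YAP1, stood at 355, 283, 279 and 293 CPM in DMSO, at 301, 236, 247 and 249 under afatinib, 276, 235, 280 and 270 under paclitaxel and 192, 165, 203 and 212 in the combination. The combination libraries lay below all others. AMOTL2 fell by 0.65 ± 0.09 in the combination (adjusted p = 7.45e-06, −0.84 and −0.46 in the sets). The combination was lower than afatinib (−0.42 ± 0.09, adjusted p = 0.00136) and paclitaxel (−0.46 ± 0.09, adjusted p = 0.000811). The call against afatinib was lost within either set alone (adjusted p up to 0.0657). That against paclitaxel was lost in 1 of the 27 alternatives (0.0898). The single drugs gave −0.23 ± 0.09 (adjusted p = 0.0826) and −0.19 ± 0.09 (adjusted p = 0.149). With replicate numbers as a block both passed (−0.23, adjusted p = 0.00807, and −0.19, adjusted p = 0.0268), as they did without a filter on low counts (−0.24, 0.00279, and −0.22, 0.00505), and afatinib also passed without afatinib replicate 1 (−0.32, adjusted p = 0.0119).

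LATS2 (ENSG00000150457, chromosome 13, 20973032 to 21061547), a Hippo kinase that inhibits YAP1 and TAZ, was the gene that moved in opposite directions with the 2 drugs. It stood at 106, 89.8, 83.7 and 89 CPM in DMSO, at 86.5, 81.2, 76.1 and 80.9 under afatinib, 120, 122, 114 and 102 under paclitaxel and 111, 107, 102 and 95.1 in the combination. Every paclitaxel and every combination library lay above every afatinib library, while DMSO replicate 1 overlapped with both groups above it. LATS2 fell by 0.18 ± 0.06 with afatinib (adjusted p = 0.0293, −0.21 and −0.14 within the sets), rose by 0.32 ± 0.06 with paclitaxel (adjusted p = 0.000256, 0.31 and 0.33) and rose by 0.17 ± 0.06 in the combination (adjusted p = 0.0196, 0.16 and 0.19). The direct difference between afatinib and paclitaxel was −0.50 ± 0.06 (adjusted p = 3.6e-07), and that between the combination and afatinib 0.35 ± 0.06 (adjusted p = 4.63e-05). Both of these calls remained in all 27 alternatives.

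The LATS2 falls and rises against DMSO were less secure. The afatinib call was lost without afatinib replicate 2 (adjusted p = 0.103) or 3 (0.0777), DMSO replicate 1 (0.151) or 4 (0.0617). It was also lost without the set term (0.407), with the labelled concentration as covariate (0.156), within either set alone (0.105 and 0.405), in a fit of the compared groups alone (0.0518) and with limma on the authors' corrected values (0.247). The combination call was lost without combination replicate 3 (0.0657) or DMSO replicate 2 (0.0692), without the set term (0.247), without a filter on low counts (0.0697), within either set alone (0.142 and 0.141) and with limma on the corrected values (0.185). The paclitaxel call held without any single library and was lost without the set term (0.32, adjusted p = 0.0647) and with limma on the corrected values (0.30, 0.0516). The combination differed from paclitaxel by −0.14 ± 0.06 (adjusted p = 0.0678), which passed with replicate numbers as a block (−0.15, adjusted p = 0.0355) and without paclitaxel replicate 4 (−0.18, adjusted p = 0.0452). It also passed with a minimum count of 50 and with DESeq2.

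Counted over the 9 genes, afatinib lowered 5 (TEAD4, CTGF, CYR61, ANKRD1 and LATS2) and raised 0, where 10.1% of all tested genes fell and 9% rose. The median log2 change of the 9 genes was −0.23, against 0 for all genes. The afatinib count was 0 without the set term, and 3 when DMSO replicate 1 or 4 or afatinib replicate 2 or 3 was left out. The afatinib and DMSO libraries of CTGF and ANKRD1 did not overlap, a separation not counted over all genes. Paclitaxel lowered 2 (CTGF and CYR61) and raised 1 (LATS2), where 11.9% of all genes fell and 8.65% rose, with a median of −0.01. With replicate numbers as a block paclitaxel lowered 4 and raised 2. Without a filter on low counts it also called 3 genes, but the 2 that fell were ANKRD1 and AMOTL2 in place of CTGF and CYR61. Only 1 gene was called when afatinib replicate 3 or 4, combination replicate 1 or 3, DMSO replicate 4 or any paclitaxel replicate was left out, and 0 without the set term.

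The combination lowered 6 genes (WWTR1, TEAD4, CTGF, CYR61, ANKRD1 and AMOTL2) and raised LATS2, where 19.5% of all genes fell and 18.5% rose. The median was −0.36. The libraries of CTGF, CYR61, ANKRD1 and AMOTL2 lay apart from those of DMSO, a separation not counted over all genes. These 4 calls, and no other in the combination against DMSO, remained in every alternative. The WWTR1, TEAD4 and LATS2 calls were lost without the set term (adjusted p = 0.161, 0.0808 and 0.247). Against afatinib alone the combination was lower in 4 genes and higher in 2, where 14.3% of all genes were lower and 13.1% higher. Against paclitaxel alone it was lower in 6, where 11.6% of all genes were. Afatinib was lower than paclitaxel in 4 genes (TEAD1, TEAD4, ANKRD1 and LATS2), where 17.1% of all genes were. The 3 comparisons with DMSO share the DMSO libraries, and the comparisons with the combination share its libraries, so these counts are not independent of each other.

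The combination was next set against the sum of both single-drug changes. CTGF changed by −2.27 where the log2 sum was −2.06, CYR61 by −1.35 (sum −1.12), AMOTL2 by −0.65 (sum −0.42) and LATS2 by 0.17 (sum 0.14). The departure from the sum passed for 0 of the 9 genes with edgeR, where 0.884% of all genes passed in either direction. ANKRD1 had the smallest p of the 9. It changed by −1.26 where the sum was −0.78, a departure of −0.48 ± 0.13 (unadjusted p = 0.00126, adjusted p = 0.0834). In terms of level, ANKRD1 stood at 41.9% of DMSO where the single-drug changes multiply to 58.3%. The departure of ANKRD1 passed with replicate numbers as a block (−0.48, adjusted p = 0.000717), with DESeq2 (−0.47, 0.0269), without a filter on low counts (−0.45, 0.000116), and without DMSO replicate 1 (−0.55, 0.0394) or paclitaxel replicate 2 (−0.54, 0.0341). Its value within the sets was −0.43 and −0.53. The departures of CTGF (−0.21 ± 0.35, 95% interval −0.97 to 0.55) and CYR61 (−0.23 ± 0.26, −0.79 to 0.33) had wide intervals, so a departure of the size seen for ANKRD1 was not detectable for them.

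**Figure D3:**
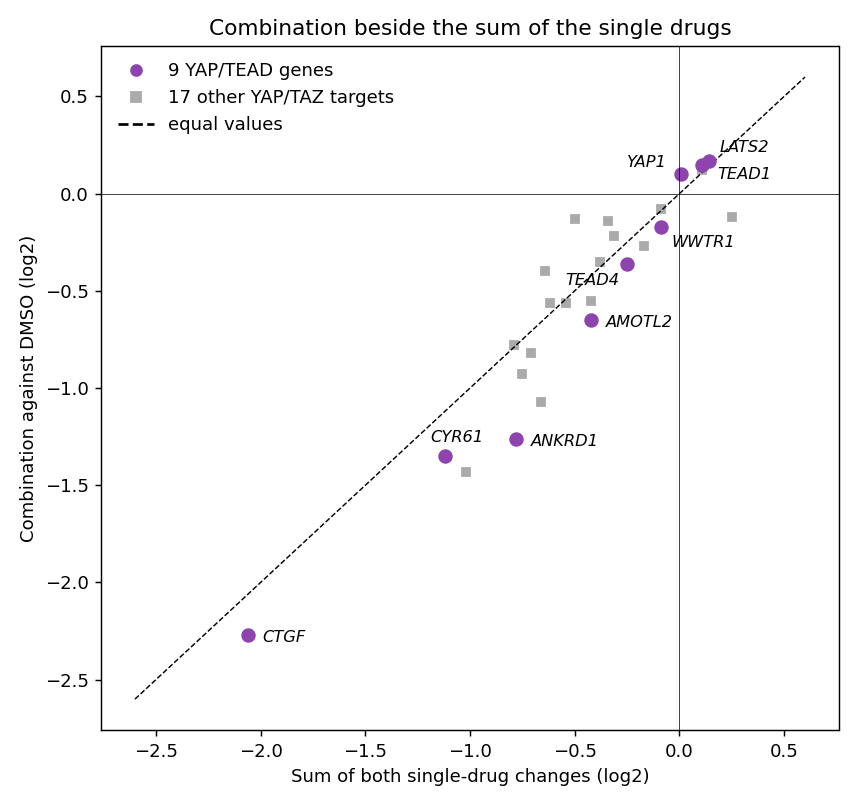
Sum of the afatinib and paclitaxel changes (log2, horizontal axis) and change in the combination (log2, vertical axis), both against DMSO, for the 9 genes (purple circles) and 17 other YAP/TAZ targets (grey squares). The dashed line marks equal values. ANKRD1 lies below the line at −0.78 and −1.26, and CTGF near it at −2.06 and −2.27.

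The ratio of CTGF to CYR61 varied less within groups than the level of either gene. CTGF per 100 CYR61 transcripts (both per kilobase) was 23.9, 19.3, 20.7 and 21.5 in DMSO, 14.1, 12.5, 12.9 and 13.8 under afatinib, 18.8, 17.5, 17.5 and 18.9 under paclitaxel and 11.2, 10.3, 11.8 and 11.9 in the combination. The 4 groups did not overlap in any of the 6 pairs, although the levels of both genes spread over a wide range within each group. The means were 21.4 ± 1.93, 13.3 ± 0.75, 18.2 ± 0.78 and 11.3 ± 0.735. Each of the 6 pairs gave a two-sided exact permutation p of 0.0286, the smallest that 4 against 4 libraries allow, and 0.0643 after Benjamini-Hochberg adjustment over the 18 ratio tests, so none passed at 0.05. Each difference had the same direction in 4 of 4 same-numbered pairs.

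TEAD4 made up 52.8 ± 4.06% of TEAD1 and TEAD4 together (RPKM) in DMSO, 48.7 ± 3.75% under afatinib, 50.2 ± 1.79% under paclitaxel and 44 ± 2.22% in the combination. In DMSO the means were 305 CPM for TEAD1 and 74.9 CPM for TEAD4. The size of the share therefore rests on the gene lengths used, 10379 and 2272 bases. The combination libraries (41.4 to 46.2%) lay below those of DMSO (48.3 to 57.8%) and paclitaxel (48.6 to 52.7%), each with an exact permutation p of 0.0286, adjusted p = 0.0643. WWTR1 made up 22.7 ± 1.1% of YAP1 and WWTR1 in DMSO and 19.6 ± 1.82% in the combination (exact permutation p = 0.0571, adjusted p = 0.103). The combination libraries (18.9, 17.5, 20.4 and 21.7%) were lower than the same-numbered DMSO libraries (21.6, 21.8, 23.5 and 23.7%) in 4 of 4 pairs, and the groups overlapped only across the sets. That test, like the other ratio tests, takes no account of pairs. An exact paired test of 4 pairs gave p = 0.125, the smallest it allows, so it could not pass. TAZ transcript was thus the smaller share of the coactivator pool in all groups.

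**Figure D4:**
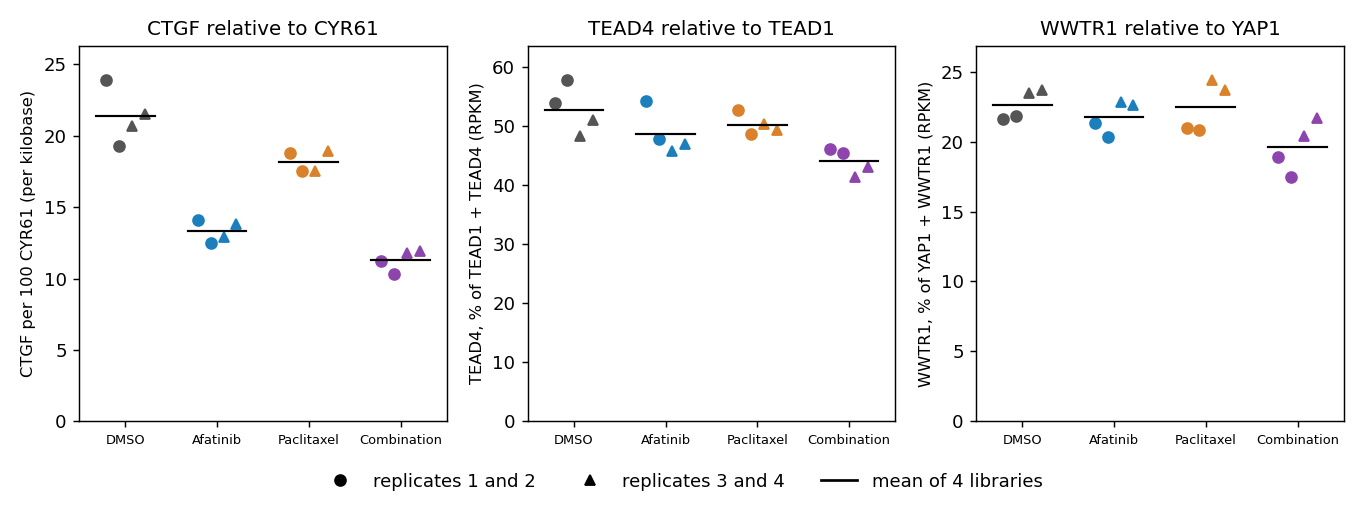
Ratios in each library (vertical axes, from 0) by treatment group (horizontal axes): CTGF per 100 CYR61 per kilobase, TEAD4 as a percent of TEAD1 and TEAD4, and WWTR1 as a percent of YAP1 and WWTR1. Circles are replicates 1 and 2, triangles replicates 3 and 4 and lines group means. The CTGF to CYR61 ratio separates all 4 groups, from 21.4 in DMSO to 11.3 in the combination.

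Several of these genes differed between the sets of replicates, whose labelled RNA concentrations also differ. Replicates 3 and 4 differed from replicates 1 and 2 by 0.86 ± 0.18 for CTGF (adjusted p = 0.000866) and 0.85 ± 0.13 for CYR61 (adjusted p = 6.36e-05), which were higher there, as were 36.2% of all genes. YAP1 (−0.29 ± 0.04), TEAD4 (−0.29 ± 0.04), ANKRD1 (−0.27 ± 0.06) and LATS2 (−0.15 ± 0.04) were lower there, as were 33.3% of all genes. AMOTL2 differed by 0.01 ± 0.06 between the sets (adjusted p = 0.869). What else set them apart is not in the labels, so concentration and any other difference between the sets cannot be told apart. Concentration also differed between treatments, at 1050.5 and 1290.9 ng/µl in DMSO replicates 1 and 2 against 685.1 and 561.5 in the combination, and at 292.1 and 330 against 167.6 and 118 in replicates 3 and 4. Paclitaxel replicates 1 to 4 were at 345.6, 429.7, 300.5 and 204.2 ng/µl, and those of afatinib at 1134.9, 868.6, 180.6 and 188. With the labelled concentration as covariate in place of the set, the combination changes were −2.69 for CTGF, −1.75 for CYR61, −1.11 for ANKRD1 and −0.64 for AMOTL2, and all 4 passed (adjusted p = 2.53e-06, 2.98e-06, 1.33e-07 and 8.74e-05). The paclitaxel values moved too, as for CYR61 from −0.56 in the reported fit to −0.90.

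Other genes of the pathway were read from 3 lists. Of 21 further genes of the Hippo kinase cassette and its scaffolds, 5 fell and 0 rose with afatinib (median −0.13), 4 fell and 3 rose with paclitaxel (median 0.02), and 7 fell and 3 rose in the combination (median −0.11). Of all tested genes, 10.1% fell and 9% rose with afatinib, 11.9% and 8.65% with paclitaxel, and 19.5% and 18.5% in the combination. PTPN14, a phosphatase that binds YAP1, fell with afatinib (−0.48 ± 0.08) and in the combination (−0.56 ± 0.08). AJUBA, a LIM protein that inhibits LATS kinases, fell with paclitaxel (−0.25 ± 0.05) and in the combination (−0.55 ± 0.05), and AMOTL1, a relative of AMOTL2, fell in the combination (−0.43 ± 0.06). The count of falls with afatinib was 3 without DMSO replicate 1, 0 without the set term, 3 with the labelled concentration as covariate, 1 and 2 within the sets, 2 with limma on the corrected values and 8 with replicate numbers as a block. With paclitaxel 0 fell and 0 rose without the set term, within replicates 3 and 4 alone and with limma. In the combination 4 fell without the set term and with limma, and 1 rose within replicates 3 and 4 alone. FRMD6, an upstream scaffold (−0.29 ± 0.05), and RASSF1 (−0.23 ± 0.06) fell with afatinib. The RASSF1 call was lost without afatinib replicate 2 (adjusted p = 0.0538). With paclitaxel the LATS activator MOB1A fell (−0.31 ± 0.07) and TP53BP2 rose (0.23 ± 0.05). The remaining members of these small counts, picked after their values were seen, were AMOTL1 (−0.20 ± 0.06) and AJUBA (−0.17 ± 0.05), which fell with afatinib, and the kinase STK4 (−0.27 ± 0.07) and AMOTL1 (−0.23 ± 0.06), which fell with paclitaxel. The kinase LATS1 (0.24 ± 0.06) rose with paclitaxel, as did the transcript of NF2 near the threshold (0.24 ± 0.09, adjusted p = 0.0448). LATS1 (0.33 ± 0.06), WWC2 (0.28 ± 0.07) and TP53BP2 (0.28 ± 0.05) rose in the combination. With the labelled concentration as covariate the MOB1A change was −0.10 (adjusted p = 0.444).

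Among other TEAD factors and their Vestigial-like cofactors, 4 of 6 had enough counts, and VGLL1 and VGLL2 did not. VGLL3 fell with afatinib (−0.55 ± 0.11) and in the combination (−0.76 ± 0.11). VGLL4, which competes with YAP1 for TEAD, rose with paclitaxel (0.34 ± 0.06, in all 27 alternatives) and at the threshold in the combination (0.14 ± 0.06, adjusted p = 0.0494). The VGLL4 call in the combination held without DMSO replicate 1 or 3 or afatinib replicate 1 or 2 and was lost without any of the other 12 libraries (adjusted p = 0.0529 to 0.147). TEAD2 fell with paclitaxel (−0.44 ± 0.09) and in the combination (−0.33 ± 0.09), and with the labelled concentration as covariate these values were −0.22 (adjusted p = 0.0972) and −0.10 (0.42).

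Of 17 other genes of a common YAP/TAZ target set, 11 fell and 0 rose with afatinib (median −0.27), 5 fell and 1 rose with paclitaxel (median −0.14), and 12 fell and 0 rose in the combination (median −0.40). The shares over all genes are those given for the first list: 10.1% fell and 9% rose with afatinib, 11.9% and 8.65% with paclitaxel, and 19.5% and 18.5% in the combination. F3, the initiator of clotting, fell with afatinib (−0.85 ± 0.09) and in the combination (−1.07 ± 0.09). TGFB2, a TGF-beta ligand, fell likewise (−0.53 ± 0.07 and −0.82 ± 0.07), as did CCDC80 (−0.59 ± 0.07 and −0.40 ± 0.07). NUAK2, a kinase, fell under all 3 treatments (−0.52 ± 0.08, −0.49 ± 0.08 and −1.43 ± 0.09 for afatinib, paclitaxel and both). RBMS3 also fell with each (−0.27 ± 0.07, −0.52 ± 0.07 and −0.78 ± 0.08). The receptor kinase AXL fell with paclitaxel (−0.27 ± 0.06), and its values with afatinib (−0.07 ± 0.06) and in the combination (−0.14 ± 0.06) did not pass. CRIM1 (−0.28 ± 0.07) and ARHGEF17 (−0.19 ± 0.06), which fell with paclitaxel, and ASAP1 (0.20 ± 0.07, adjusted p = 0.048), the gene that rose, were likewise picked afterwards to complete the counts. The ASAP1 call was lost without afatinib replicate 2, 3 or 4, combination replicate 1, DMSO replicate 2 or 4, or any paclitaxel replicate. Without the set term no call with afatinib remained among the genes named from the 3 lists by rule (FRMD6, PTPN14, RASSF1, VGLL3, F3, CCDC80 and TGFB2). In this list 13 genes were higher and 2 lower in replicates 3 and 4 than in 1 and 2 (median 0.39). Of all tested genes, 36.2% were higher and 33.3% lower there. The paclitaxel count of falls was 12 with the labelled concentration as covariate and 0 within replicates 3 and 4 alone, and without the set term 1, 2 and 5 genes fell with afatinib, paclitaxel and the combination. PTPN14 stands in this list and in the first.

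Genes with the most similar pattern were sought among 9717 others, by the root mean square difference of the 3 log2 changes against DMSO. CYR61 had close neighbours: THBD, the thrombin receptor thrombomodulin, lay at 0.06 (−0.66, −0.51 and −1.32 with afatinib, paclitaxel and the combination), NUAK2 at 0.07, NR2F1 at 0.09 and AMIGO2 at 0.12. NR2F1 overlaps its antisense gene NR2F1-AS1 (218 to 651 counts per library), and reads of both cannot be told apart without strand. ANKRD1 lay nearest to INHBB, a subunit of activin B (0.09; −0.46, −0.15 and −1.20), TGFB2-AS1 (0.09), GPRC5A (0.10) and UNC119B (0.12). Nearest to CTGF was EDN1, which encodes endothelin 1, at 0.26 (−1.02, −0.65 and −1.92), followed by the cytokine genes CXCL1 (0.36), IL1A (0.42) and CXCL8 (0.43). These distances describe 3 values per gene that share the DMSO libraries. The SE of those values was 0.25 to 0.26 for CTGF and 0.18 to 0.19 for CYR61. The EDN1 distance and those of the CYR61 neighbours are thus no larger than these errors.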

How the data were processed

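The authors deposited a table of whole-number counts per gene, aligned to hg38 by STAR 2.7.5b and counted with featureCounts (Subread 2.0.1), which the submitters' processing notes name; the strand setting was not given in the sources used here. A second deposited table holds log2 values that the authors corrected for RNA concentration, and served only as an alternative. Genes with an identifier but no symbol (171, at most 0.0462% of counts) were kept.

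Counts of 17991 genes (filterByExpr, minimum count 10, minimum total 15) were scaled with TMM and compared in edgeR 4.0.16 (R 4.3.3) by quasi-likelihood with robust dispersion, with group and replicate set (1 and 2, or 3 and 4) in 1 fit over 16 libraries. Calls are at a Benjamini-Hochberg adjusted p under 0.05 over all tested genes. SE is the absolute log2 change divided by the root of F. Alternatives used limma 3.58.1 and DESeq2 1.42.0. RPKM used the gene lengths in the table. Positions are from GENCODE v29.

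Same-numbered libraries deviated from group means together (r = 0.37 to 0.70 in 24 pairs, median 0.59). So did other numbers of the same set (0.38 to 0.67, median 0.5), while libraries of different sets deviated apart (−0.66 to −0.3). The reported fit holds the set and not the replicate number, which entered only as a block in an alternative. Named are the 9 genes, up to 3 called genes per list with the smallest p in each comparison with DMSO, and the 4 nearest patterns of CTGF, CYR61 and ANKRD1. The genes and lists were chosen with earlier results of these data known. The ratios and their paired test were chosen after seeing the data.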

Additional observations from a re-analysis of the deposited data

Results flagged for a closer look

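In 2 of 36 groups of 4 libraries (9 genes in 4 treatments) the most extreme library stood far from the other three, where chance alone gives about 1 in 20. TEAD1 stood at 318 CPM in afatinib replicate 2, against 284 to 287 CPM in the other afatinib libraries. ANKRD1 stood at 209 CPM in combination replicate 1, against 157 to 165 CPM in the other combination libraries, and DMSO, afatinib and paclitaxel replicate 1 were also the highest ANKRD1 libraries of their groups (521, 356 and 408 CPM).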

How the results depend on the processing

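The number of the 9 genes called was recomputed under up to 11 settings and without each library. Without the set term it was 0 for afatinib (5 in the reported fit), 0 for paclitaxel (3) and 4 for the combination (7), 3 for the combination against afatinib (6), 2 against paclitaxel (6) and 1 for afatinib against paclitaxel (4). Within replicates 1 and 2 alone the counts were 1, 1, 1, 2 and 2 for afatinib, paclitaxel, combination against afatinib, combination against paclitaxel and afatinib against paclitaxel. Within replicates 3 and 4 alone they were 2 with afatinib and 1 with paclitaxel, and limma on the authors' corrected values called 2 and 0. The cause was not tested, but both subsets have fewer libraries.

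With the replicate block, 6 genes were called with paclitaxel and 1 for the departure from the sum; it also called AMOTL2 with afatinib, LATS2 in the combination against paclitaxel and CTGF in afatinib against paclitaxel, and changed no other call in a comparison of treatments. No filter on low counts and DESeq2 each gave 1 gene for the departure. Without single libraries the counts were 3 to 6 (afatinib), 1 to 4 (paclitaxel) and 0 to 1 for the departure. No called change turned its direction: of 1872 single-gene values 1698 kept their side of the threshold, and 74 changed sign where neither value was called. Over all genes, the numbers called for afatinib, paclitaxel and their combination against DMSO were 3432, 3694 and 6830, and 380, 625 and 2310 without the set term. Replicates 1 and 2 alone called 1245 and 1779 genes for the single drugs, replicates 3 and 4 alone called 527, 796 and 3181, and limma on the authors' corrected values called 1108, 1148 and 4067. The paclitaxel calls split into 1557 higher and 2137 lower in the reported fit, and 240 and 908 with limma. For the combination against afatinib, 4935 genes became 1143 (no term), 2528 and 2019 (each set alone) and 2113 (limma), and against paclitaxel 4347 became 768, 1974, 1298 and 2170. For afatinib against paclitaxel 6479 became 1654, 3615 and 2785. The departure from the sum had 159 genes, 0 without the term, 26 with the labelled concentration, 501 with the replicate block, 479 unfiltered, 367 with DESeq2, 3 and 4 in the sets, 2 with limma and 34 to 279 without single libraries.

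The lowest count of any of the 9 genes in a library was 1790, so counting error was small, and the spread of CTGF and CYR61 between 4 libraries set the precision.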

Other observations

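The genes differed in how much of their variance between the 16 libraries went with treatment and how much with the set of replicates (1 and 2, or 3 and 4), as a description of log2 CPM. Treatment took 87.3% for ANKRD1, 78.7% for LATS2, 77% for AMOTL2 and 70.4% for CTGF, against a median of 26.6% over all tested genes. The set took 75.5% for YAP1, 39.5% for CYR61 and 39% for TEAD4, against a median of 37.3%, and 0.138% for AMOTL2. The coefficient of variation between replicates in the fit was 23.9% for CTGF and 17.8% for CYR61, where the median gene had 8.1%, and 5.86 to 9.18% for the other 7 genes. CTGF and CYR61 were therefore the genes with the widest intervals despite their high counts.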
